A study of Mus musculus with 6 samples.

Results

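The genes examined here encode the translation initiation factors of the mouse, taken as every gene whose symbol begins with Eif and a digit, together with the eIF2 kinases and 4E binding proteins that carry the same prefix. They were found among probe sets annotated to exactly 1 gene symbol: 133 such probe sets named 47 genes, out of 18193 genes measured on the arrays. Whole ventricles of 3 OE mice and 3 CTRL mice, each a separate animal, were compared on 6 mouse whole-genome arrays. OE mice carried Myh6-MerCreMer and CAG-S-COUP-TFII, and CTRL mice carried Myh6-MerCreMer without the second allele. Myh6-MerCreMer places a tamoxifen-dependent Cre recombinase in cardiomyocytes, and once Cre has acted, CAG-S-COUP-TFII expresses the nuclear receptor COUP-TFII. The mice of both groups were males of a 129SvEv/C57Bl6/J mixed strain. Tamoxifen was given to both at 40 mg/kg/day for 3 days from 2 months of age, and tissue was taken 16 days after the first dose. The age at harvest is labelled 2.5 months, while the array methods speak of 2-month-old mice. Whole ventricles hold every cell type of the heart wall, while Cre acted in cardiomyocytes.

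Initiation is the step at which a ribosome is placed on the start codon of an mRNA. eIF2 carries the initiator tRNA to the small ribosomal subunit and eIF2B recharges eIF2 with GTP, a step that the eIF2 kinases block under stress by phosphorylating eIF2. eIF4E binds the cap of the mRNA, and with the scaffold eIF4G and the helicase eIF4A it recruits the small subunit, on which eIF3 is the large platform. The 4E binding proteins keep eIF4E from eIF4G unless mTOR has phosphorylated them. In the heart, protein synthesis sets the growth of cardiomyocytes, and initiation is where load and nutrient signals act on it.

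Every value below is in log2 units. The deposited values of each probe set are centred on its median over the 6 arrays, so that a value states how an array stands relative to the others and holds no level of expression. The value of a gene is the mean of its probe sets, and a difference is OE minus CTRL. Where the groups of a probe set do not overlap, this centring makes the lowest value of the higher group and the highest value of the lower group mirror images around 0. A gene was called at an adjusted p under 0.05 in limma, a linear model with moderated variances fitted over all 18193 genes and adjusted over them by Benjamini-Hochberg. With 3 arrays a group, the smallest p that exact permutation of the labels allows for a single gene is 0.1.

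The arrays of the 2 groups were further from each other (root mean square distance over genes 0.375 to 0.427) than the arrays within OE (0.194 to 0.215) or within CTRL (0.208 to 0.233). The overexpressed gene *Nr2f2* was at 1.72, 1.60 and 1.91 in OE and at −1.99, −1.60 and −1.65 in CTRL by the probe set with the largest difference, while its other 5 probe sets had differences between −0.34 and −0.13. Marker genes of several cell types differed between the groups. Over all genes 14.9% were called higher in OE and 11.8% lower. Of 12 cardiomyocyte markers 7 were called lower and 2 higher (median −0.44), and their array means were −0.20 to −0.14 in OE and 0.12 to 0.21 in CTRL. Of 13 macrophage markers 6 were higher and none lower (array means 0.01 to 0.38 in OE and −0.35 to −0.11 in CTRL), of 12 fibroblast markers 6 were higher and 1 lower (0.17 to 0.31 in OE and −0.53 to −0.18 in CTRL), and of 11 markers of proliferating cells 8 were higher and none lower (0.30 to 0.56 in OE and −0.51 to −0.23 in CTRL). Of 12 endothelial markers 6 were lower and none higher (−0.20 to −0.01 in OE and 0.10 to 0.36 in CTRL), and of 9 lymphocyte markers none was called. The values hold no level, so it cannot be said which markers were near background. In whole ventricles, fewer cells of a type and less RNA per cell cannot be told apart, and the part of these marker differences in the results below was not tested.

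Of the 47 genes, 14 were called higher in OE (29.8%) and 5 lower (10.6%), against 14.9% of all genes called higher and 11.8% called lower, or 26.7% in either direction. The median difference was 0.15 over the 47 genes and −0.03 over all genes. The shares of all genes, 14.9% higher and 11.8% lower, are also those to set beside each count of a factor group or list below. The 3 OE arrays lay above all 3 CTRL arrays for 24 of the 47 (51.1%, against 22.0% of all genes) and below them for 8 (17.0%, against 23.6% of all genes). All 19 called genes were among these. With the analysis of variance named in the methods, which called 14.1% of all genes, 8 of the 47 were higher and 3 lower. The 8 genes that lost their call with it were *Eif1ad*, *Eif1ax*, *Eif2b2*, *Eif2b5*, *Eif3c*, *Eif3i*, *Eif3k* and *Eif4a3*. When a fold limit of 1.2 was added to the limma threshold, 12 of the 47 were higher and 4 lower. Of all genes 2540 were then higher and 1917 lower. *Eif2a* (1.196-fold), *Eif2b2* (1.191-fold) and *Eif1ax* (1.196-fold) fell below this limit and lost their call. Without CTRL 1 or without CTRL 2 the count called higher was 9, where 10.9% of all genes were called higher in each case. The count called lower was 3 on leaving out OE 1, OE 2, OE 3, CTRL 1 or CTRL 3, where 6.83% to 9.51% of all genes were called lower.

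The scale of the arrays bears on these counts. The 40 cytosolic ribosomal protein genes used, which are those with probe sets naming them alone and not the full set, were on average 0.22 higher in OE. When the arrays were centred on these 40 genes, the median difference of all genes was −0.25 in place of −0.03. On that scale 7.02% of all genes were called higher and 51.1% lower, and of the 47 genes 3 (*Eif1a*, *Eif3b* and *Eif4a1*) were higher and 15 lower. Every difference given below is 0.22 lower on that scale, so that a rise smaller than this is a fall relative to the ribosomal protein genes. Differences between Eif genes are the same on both scales.

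**Figure D1:**
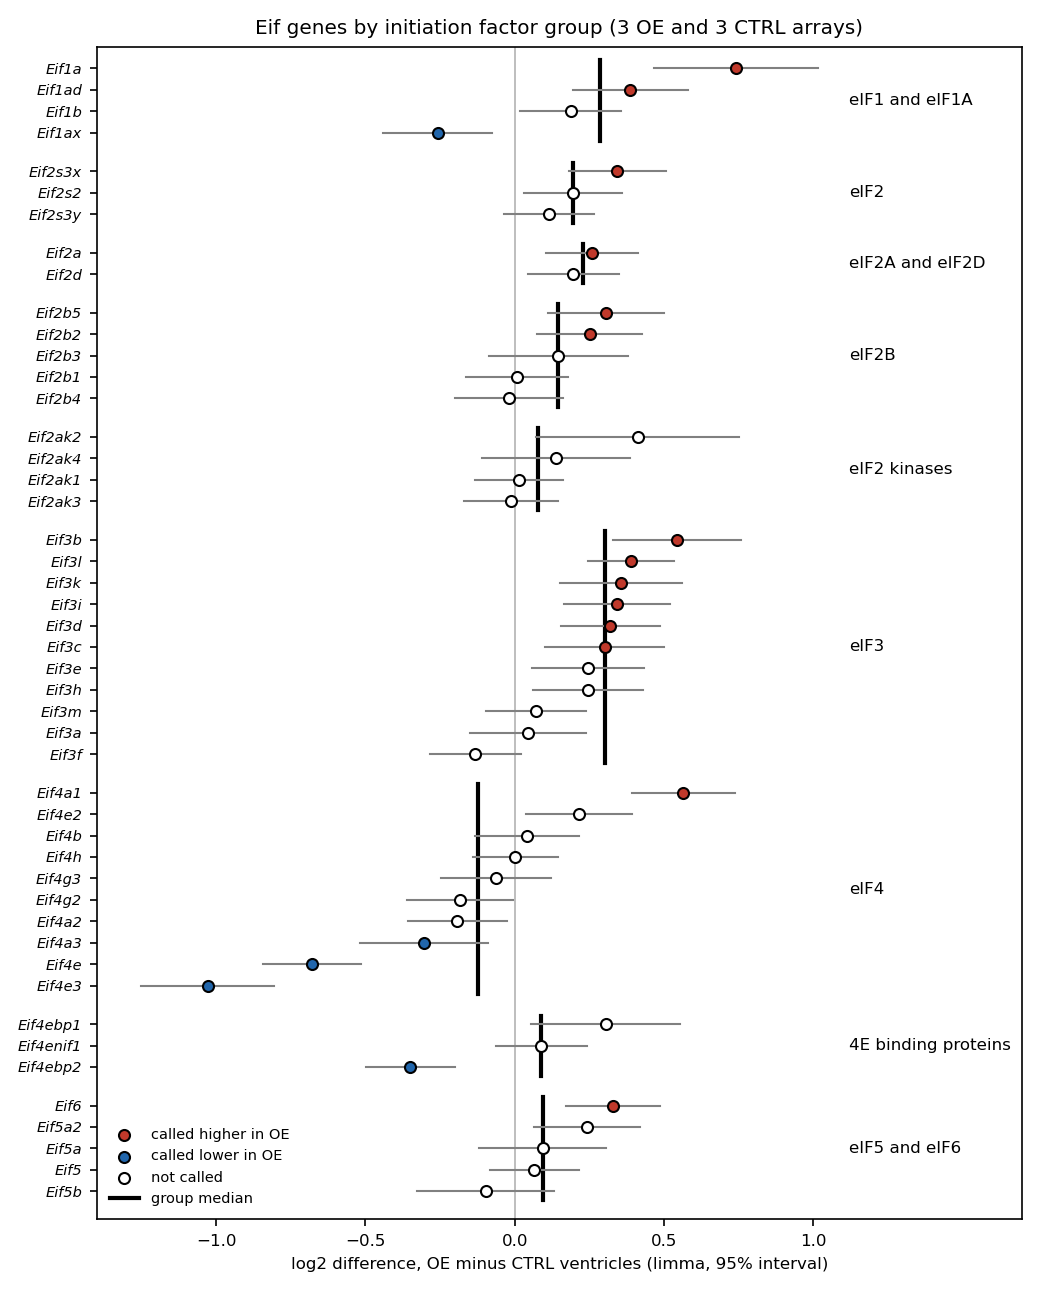
The log2 difference between OE and CTRL ventricles is plotted for each of the 47 genes by factor group, with its 95% interval from limma and a bar at the median of the group. The medians of eIF3 (0.30) and of eIF1 and eIF1A (0.29) lay close together and that of eIF4 (−0.12) was below 0, and centring on ribosomal protein genes shifts every point and bar by −0.22, which turns the medians of eIF2, eIF2B, the eIF2 kinases, the 4E binding proteins and the group of eIF5 and eIF6 below 0.

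The genes that find the start codon differed in direction. eIF1 and eIF1A together hold the scanning ribosome open. Of the 4 genes grouped with them here, *Eif1a* and *Eif1ad* were higher, *Eif1ax* was lower and *Eif1b* was not called (0.19, adjusted p = 0.097). The group median was 0.29 (0.06 when centred on ribosomal protein genes). *Eif1a* and *Eif1ax* both encode eIF1A. *Eif1a* was at 0.20, 0.43 and 0.49 in OE and at −0.25, −0.25 and −0.59 in CTRL, a 1.67-fold difference (0.74, SE 0.118, adjusted p = 0.00417). The groups did not overlap, and CTRL 3 was the lowest array. Both of its probe sets were called (0.64 and 0.84), while a further probe set, which names *Eif1a* together with 2 other symbols and was not used for the gene, had a difference of −0.02 (adjusted p = 0.885). *Eif1ax* had a difference of −0.26 (adjusted p = 0.0463), and its probe sets were spread from 0.22 (not called) to −0.43 and −0.56 (both called). The call on *Eif1ax* was lost without OE 1, OE 2, OE 3, CTRL 1 or CTRL 3 (adjusted p = 0.0783 to 0.125). Within an array, *Eif1a* minus *Eif1ax* was 0.49 ± 0.12 in OE and −0.51 ± 0.21 in CTRL (SD, n = 3 each). This pair and the other pairs below were formed with the values known and are given as a description. *Eif1ad*, which enters the group and its median by its symbol, encodes a protein with an eIF1A-like domain and not eIF1A itself. *Eif1ad* was at 0.36, 0.12 and 0.27 in OE and at −0.10, −0.09 and −0.22 in CTRL (0.39, SE 0.0833, adjusted p = 0.0132). Its groups did not overlap, but 1 probe set carried the difference (0.83) and the other did not (−0.06, adjusted p = 0.677).

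For eIF2 itself, 3 genes were measured and all had OE above CTRL, with 1 called. *Eif2s3x*, the X-linked gene of the gamma subunit that binds GTP and the initiator tRNA, was at 0.15, 0.14 and 0.29 in OE and at −0.14, −0.17 and −0.15 in CTRL (0.34, SE 0.0695, adjusted p = 0.0105). The OE arrays were all higher, and the call ended only when the arrays were centred on ribosomal protein genes (0.12, adjusted p = 0.167). Of the 3 probe sets of *Eif2s3x* 1 was called (0.65), and the others had differences of 0.15 and 0.23. *Eif2s3y*, its Y-linked counterpart, had a smaller difference that was not called (0.11, adjusted p = 0.227), as had *Eif2s2*, the beta subunit (0.19, adjusted p = 0.0803), for which 3 of 6 probe sets were called higher. *Eif2s3x* minus *Eif2s3y* was 0.13 ± 0.05 in OE and −0.10 ± 0.03 in CTRL (SD, n = 3 each). *Eif2s1*, the alpha subunit that the eIF2 kinases phosphorylate, had no probe set of its own among those used. The group median was 0.19, and −0.03 when centred on ribosomal protein genes. Of the factors that deliver tRNA apart from eIF2, *Eif2a*, which encodes eIF2A and not the alpha subunit of eIF2, was higher (0.26, adjusted p = 0.0248), although none of its 3 probe sets was called alone. Its call was lost without OE 1, OE 2, CTRL 1, CTRL 2 or CTRL 3 (adjusted p = 0.0511 to 0.0855). *Eif2d* was not called (0.20, adjusted p = 0.0617), with 3 of 6 probe sets called higher (0.34 to 0.64) and the others between −0.16 and 0.09.

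eIF2B, the exchange factor for eIF2, had 2 of 5 subunits called higher and none lower, with a median of 0.15 (0.0637 without OE 3, 0.0841 without CTRL 2 and −0.08 when centred on ribosomal protein genes). *Eif2b5*, the catalytic epsilon subunit, was at 0.04, 0.18 and 0.29 in OE and at −0.10, −0.21 and −0.11 in CTRL (0.31, SE 0.0832, adjusted p = 0.031). The OE arrays were all higher but spread over a wider range than the CTRL arrays, and the call was lost on leaving out any array except OE 1 (adjusted p = 0.0569 to 0.09). *Eif2b2*, the beta subunit, had a difference of 0.25 (adjusted p = 0.0435), and this call was lost without any 1 of the 6 arrays (adjusted p = 0.0545 to 0.131). *Eif2b1* (0.01), *Eif2b4* (−0.02) and *Eif2b3* (0.15), which encode the alpha, delta and gamma subunits, were not called (adjusted p from 0.311 to 0.955).

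None of the 4 kinases that phosphorylate eIF2 was called, and their median difference was 0.08 (0.00 without CTRL 3, and −0.15 when centred on ribosomal protein genes). *Eif2ak1* encodes HRI, which senses heme, and was at 0.03, −0.03 and 0.01 in OE and at 0.02, 0.01 and −0.06 in CTRL (0.01, 95% interval −0.13 to 0.16, adjusted p = 0.882). *Eif2ak3* encodes PERK, the kinase of endoplasmic reticulum stress, and was at 0.02, −0.07 and −0.04 in OE and at 0.00, 0.04 and −0.09 in CTRL (−0.01, 95% interval −0.17 to 0.14, adjusted p = 0.907). The groups of both kinases overlapped, and no probe set of either was called, although those of *Eif2ak3* ran from −0.31 to 0.21. *Eif2ak4* encodes GCN2, the sensor of amino acid shortage, and was at 0.11, 0.01 and 0.01 in OE and at 0.03, 0.01 and −0.33 in CTRL (0.14, SE 0.107, adjusted p = 0.366). CTRL 3 was the lowest array, and without it the difference was 0.02. Of its 2 probe sets, 1 was called higher (0.38, adjusted p = 0.039 over probe sets) with no overlap of the groups and 1 was at −0.10, and *Eif2ak4* was called higher when read from the more variable of them (adjusted p = 0.0351). *Eif2ak2* encodes PKR, which double-stranded RNA activates and interferon induces, and was at −0.05, 0.51 and 0.25 in OE and at −0.35, −0.04 and −0.14 in CTRL (0.41, SE 0.147, adjusted p = 0.0735). OE 1 fell just within the range of CTRL, and without it *Eif2ak2* was called higher (0.56, adjusted p = 0.0303), as it was with the replicate number as a block (adjusted p = 0.0215). Of the 3 probe sets of *Eif2ak2*, 1 was called higher (0.56, adjusted p = 0.00485 over probe sets), 1 had a similar difference that was not called (0.61) and 1 had 0.06.

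Other genes act on the same phosphorylation. Of 9 phosphatase subunits and GCN2 regulators, 1 was called higher and 1 lower, with a median of 0.12. These counts were near the shares of all genes called higher (14.9%) and lower (11.8%). *Impact*, an inhibitor of GCN2 activation, was higher (0.30, adjusted p = 0.0205) and *Gcn1*, the GCN2 activator, was lower (−0.29, adjusted p = 0.0388). The call on *Impact* was lost without OE 1, OE 2, CTRL 2 or CTRL 3 (adjusted p = 0.0549 to 0.0683), and that on *Gcn1* without any 1 of the 6 arrays (adjusted p = 0.0514 to 0.122). *Ppp1cb*, a catalytic subunit of protein phosphatase PP1, had the smallest difference of the list (−0.04, adjusted p = 0.778). The largest was that of *Ppp1r15a*, which was not called (0.53, SE 0.170, adjusted p = 0.0547). *Ppp1r15a* was at 0.29, 0.06 and 0.47 in OE and at −0.06, −0.08 and −0.63 in CTRL, and the groups did not overlap.

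Of the 11 eIF3 genes measured, 6 were higher in OE and none was lower, with a median of 0.30 (all genes 14.9% higher and 11.8% lower). Over its 11 genes the array means were 0.07 to 0.18 in OE and −0.14 to −0.11 in CTRL. The median stayed above 0 when the arrays were centred on ribosomal protein genes (0.08), where 1 of the 6 kept its call. It was 0.25 without probe sets that match several transcripts by their suffix. Read from the most variable probe set of each gene, a choice that favours probe sets that differ between the groups, the median was 0.48. *Eif3b*, a core subunit, was at 0.30, 0.20 and 0.23 in OE and at −0.20, −0.48 and −0.21 in CTRL, a 1.46-fold difference (0.54, SE 0.0921, adjusted p = 0.00526). The groups were apart by more than their spread, with CTRL 2 the lowest array, and *Eif3b* was called under every alternative that was run, although it rests on 1 probe set.

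*Eif3l* and *Eif3k* encode a pair of subunits that bind each other at the edge of eIF3. *Eif3l* was at 0.17, 0.20 and 0.20 in OE and at −0.18, −0.25 and −0.18 in CTRL (0.39, SE 0.0622, adjusted p = 0.00413), the narrowest spread within OE of the called eIF3 genes. Of its 3 probe sets 2 were called higher (0.58 and 0.67) and 1 was at −0.07. *Eif3k* was at 0.27, 0.13 and 0.09 in OE and at −0.16, −0.34 and −0.09 in CTRL (0.36, SE 0.0885, adjusted p = 0.0226). Both had every OE array above every CTRL array. The call on *Eif3k* was lost without OE 1, OE 2, CTRL 1 or CTRL 2 (adjusted p = 0.0513 to 0.0777), and both calls were lost on the scale of the ribosomal protein genes (*Eif3l* 0.17, adjusted p = 0.0692, and *Eif3k* 0.13, adjusted p = 0.229).

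*Eif3i*, which joins *Eif3b* in the module on the mRNA entry side, was at 0.10, 0.11 and 0.28 in OE and at −0.18, −0.24 and −0.12 in CTRL (0.34, SE 0.0772, adjusted p = 0.0157). *Eif3d*, a subunit that can bind the cap of certain mRNAs, was at 0.08, 0.11 and 0.24 in OE and at −0.16, −0.14 and −0.23 in CTRL (0.32, SE 0.0713, adjusted p = 0.015). OE 3 was the highest array for both, and neither pair of groups overlapped. For *Eif3d* 1 probe set held the difference (0.64) and the other was at 0.00, and for *Eif3i* the probe sets were at 0.54 (called) and 0.14. The call on *Eif3i* was lost without CTRL 2 (adjusted p = 0.0514). *Eif3c*, a core subunit, was called higher (0.30, adjusted p = 0.036), but not without OE 1, OE 3, CTRL 1 or CTRL 3 (adjusted p = 0.0791 to 0.108). Of its 4 probe sets 1 was called (0.58), and without probe sets whose suffix marks a match to several transcripts the difference was 0.18 (adjusted p = 0.145).

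The other 5 eIF3 genes were not called. *Eif3e* (0.25, adjusted p = 0.0578) and *Eif3h* (0.25, adjusted p = 0.0559) lay just beyond the threshold, their groups did not overlap, OE being higher, and each had at least 1 probe set called higher. *Eif3m* (0.07) and *Eif3a*, the largest subunit (0.05), overlapped between the groups. *Eif3f* was the exception in direction, with the 3 OE arrays (−0.06 to −0.02) below the 3 CTRL arrays (0.02 to 0.15) and a difference of −0.13 that was not called (adjusted p = 0.173).

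**Figure D2:**
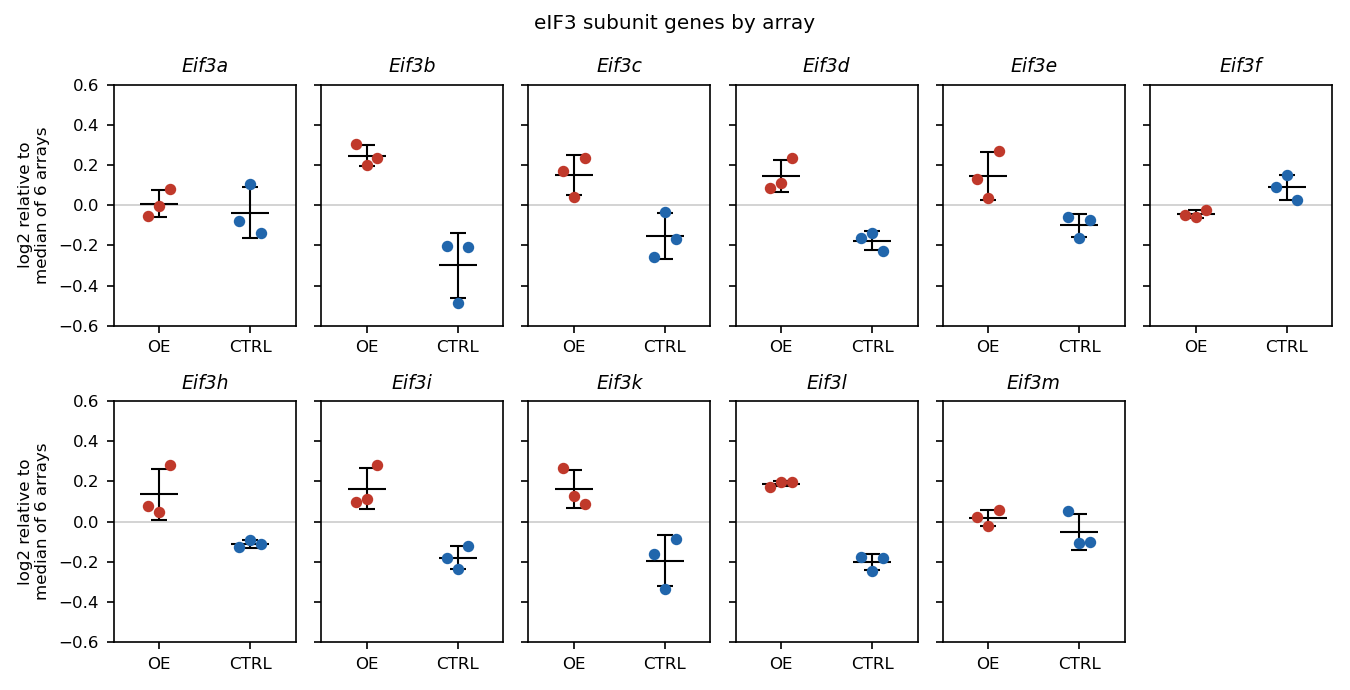
The log2 value of each of the 11 eIF3 subunit genes relative to the median of the 6 arrays is shown for 3 OE and 3 CTRL arrays (points), and bars give each group's mean and SD. OE arrays lay above CTRL arrays for 8 genes and below them for *Eif3f*, and on the scale of ribosomal protein genes the differences are 0.22 lower.

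In eIF4, the cap-binding group, genes were called in both directions. Of 10 genes 3 were called lower and 1 higher, with a median of −0.12 (−0.34 when centred on ribosomal protein genes). Of all genes 11.8% were called lower and 14.9% higher. From the most variable probe set of each gene, a choice that favours larger differences, the median was −0.21. The array means were −0.10 to −0.04 in OE and 0.07 to 0.11 in CTRL. Of the 3 eIF4E genes measured, *Eif4e* and *Eif4e3* were lower. *Eif4e3* had the largest difference of all 47 genes, at −0.44, −0.43 and −0.65 in OE and at 0.41, 0.67 and 0.49 in CTRL, which is 2.04-fold lower in OE (−1.03, SE 0.0959, adjusted p = 5.2e-04). *Eif4e*, the main cap-binding protein, was at −0.35, −0.25 and −0.35 in OE and at 0.39, 0.42 and 0.28 in CTRL, which is 1.60-fold lower in OE (−0.68, SE 0.071, adjusted p = 8.1e-04). For both genes the groups were separated by more than the whole range within either, and both were called lower under every alternative that was run. Of the 4 probe sets of *Eif4e*, 3 were called lower (−0.73, −0.73 and −1.22) and 1 had a difference of −0.05.

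*Eif4e2*, which encodes 4EHP, a cap-binding protein that does not recruit eIF4G and represses translation, was not called (0.21, adjusted p = 0.075), with 2 of 5 probe sets called higher. Within an array *Eif4e2* minus *Eif4e* was 0.44 ± 0.08 in OE and −0.45 ± 0.13 in CTRL (SD, n = 3 each).

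The helicase genes also differed. *Eif4a1*, the main eIF4A helicase, was at 0.22, 0.32 and 0.40 in OE and at −0.19, −0.31 and −0.27 in CTRL, a 1.48-fold rise (0.57, SE 0.0739, adjusted p = 0.00178). All 3 of its probe sets were called higher (0.46 to 0.74), and the call held under every alternative that was run. *Eif4a2*, its close paralogue, had all OE arrays below all CTRL arrays but was not called (−0.19, adjusted p = 0.0837). *Eif4a1* minus *Eif4a2* within an array was 0.41 ± 0.10 in OE and −0.35 ± 0.12 in CTRL, and *Eif4a1* minus *Eif4e* was 0.63 ± 0.10 in OE and −0.62 ± 0.10 in CTRL (SD, n = 3 each). *Eif4a3*, a helicase of the exon junction complex and not of initiation, was at −0.05, −0.19 and −0.26 in OE and at 0.07, 0.30 and 0.05 in CTRL (−0.30, SE 0.0924, adjusted p = 0.0447). This was the weakest of the eIF4 calls: it was lost without any 1 of the 6 arrays (adjusted p = 0.0509 to 0.124), and a probe set that names *Eif4a3* together with *Gm5576* had a difference of 0.22 (adjusted p = 0.141). The helicase cofactors *Eif4b* (0.04) and *Eif4h* (0.00) and the scaffold *Eif4g3* (−0.06) were not called. *Eif4g2*, an eIF4G-like protein without the site for eIF4E, was not called either (−0.18, adjusted p = 0.115). Of its 5 probe sets 2 were called lower (−0.54 and −0.34), and the others ran from −0.24 to 0.23. Without probe sets that match several transcripts by their suffix, *Eif4g2* was called lower. *Eif4g1* had no probe set of its own among those used.

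Of the 3 genes that encode binding partners of eIF4E, *Eif4ebp2* was lower and the others were not called. *Eif4ebp2*, which encodes 4E-BP2, was at −0.12, −0.15 and −0.18 in OE and at 0.24, 0.22 and 0.14 in CTRL (−0.35, SE 0.0642, adjusted p = 0.00727). Its groups did not overlap, 2 of 5 probe sets were called lower, all 5 had differences below 0, and the call held under every alternative that was run. *Eif4ebp1*, which encodes 4E-BP1, was at 0.13, 0.03 and 0.40 in OE and at −0.16, 0.00 and −0.19 in CTRL (0.31, 95% interval 0.05 to 0.56, adjusted p = 0.0726). OE 2 and CTRL 2 nearly met, and 1 of 3 probe sets was called higher (0.56) while another had −0.06. *Eif4enif1*, which encodes the eIF4E transporter, was at 0.08, 0.06 and 0.01 in OE and at −0.11, −0.01 and −0.02 in CTRL (0.09, SE 0.0656, adjusted p = 0.342). The groups of *Eif4enif1* lay next to each other without a gap larger than the spread within either. Within an array *Eif4ebp1* minus *Eif4ebp2* was 0.34 ± 0.21 in OE and −0.32 ± 0.09 in CTRL (SD, n = 3 each).

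**Figure D3:**
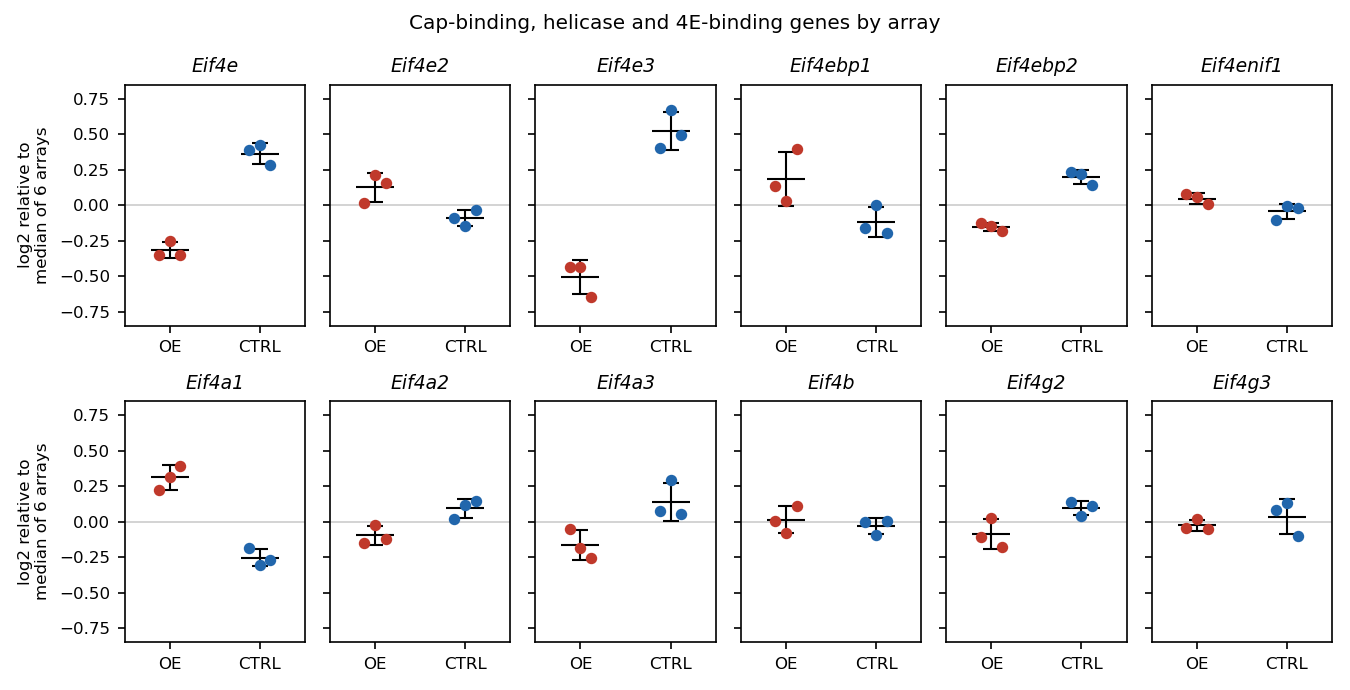
The log2 value relative to the median of the 6 arrays is shown for 12 genes of cap binding, RNA unwinding and eIF4E binding, in 3 OE and 3 CTRL arrays (points), and bars give each group's mean and SD. *Eif4e*, *Eif4e3*, *Eif4ebp2* and *Eif4a3* were called lower in OE and *Eif4a1* higher, and all of these kept their direction when the arrays were centred on ribosomal protein genes.

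Of 14 genes, mainly of mTOR signalling and the MNK kinases that phosphorylate eIF4E, 1 was called higher and 2 lower, with a median of −0.04. Over all genes 14.9% were called higher and 11.8% lower. The list also holds genes, such as *Larp1* and *Rps6kb2*, that are not inputs to eIF4E. *Mknk2*, the gene of MNK2, was lower (−0.51, adjusted p = 0.0177), a call lost without OE 1, OE 2 or CTRL 2 (adjusted p = 0.0545 to 0.0642). *Larp1*, which binds the mRNAs of ribosomal proteins and other mRNAs with a TOP start, was lower (−0.46, adjusted p = 0.00592) under every alternative that was run. *Rps6kb2*, a kinase of ribosomal protein S6, was higher (0.34, adjusted p = 0.0306), a call lost without any OE array or without CTRL 2 (adjusted p = 0.0576 to 0.0901). *Rheb*, the activator of mTOR, had the smallest difference of the list (0.02, adjusted p = 0.853). Of 13 genes of poly(A) binding and start site selection, 3 were called higher and 1 lower, with a median of 0.03. *Mcts2*, a retrogene of the recycling factor gene *Mcts1* (0.62, adjusted p = 0.00106), and *Bzw1*, which acts on start codon choice (0.43, adjusted p = 0.00318), were higher, and *Pabpc4*, a cytoplasmic poly(A) binding protein, was lower (−0.51, adjusted p = 0.00288). *Ddx3x*, a helicase, was not called (−0.03, adjusted p = 0.826).

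Genes of the eIF5 and eIF6 group were mostly not called. Of the 5 genes of eIF5 and eIF6, 1 was higher and none lower, with a median of 0.09 (0.0546 without CTRL 2, 0.15 without CTRL 3 and −0.13 when centred on ribosomal protein genes). *Eif6*, which keeps the large ribosomal subunit from joining too early, was at 0.12, 0.12 and 0.25 in OE and at −0.18, −0.18 and −0.15 in CTRL (0.33, SE 0.0681, adjusted p = 0.0113). The groups did not overlap, but the probe sets of *Eif6* disagreed, at 0.71 and −0.05. *Eif5*, the GTPase activator of eIF2 (0.07), *Eif5b*, which joins the subunits (−0.10), and *Eif5a*, the hypusinated factor (0.09), overlapped between the groups. *Eif5a2*, the paralogue of *Eif5a*, was not called (0.24, adjusted p = 0.0509). Of 8 genes of hypusine and polyamine metabolism 3 were higher and none lower (median 0.19): *Sat1* (0.85, adjusted p = 0.0117), which breaks polyamines down, *Azin1* (0.57, adjusted p = 0.0015), which spares ornithine decarboxylase from its antizyme, and *Srm*, the spermidine synthase (0.30, adjusted p = 0.0352). The call on *Srm* was lost on leaving out any array except OE 1 (adjusted p = 0.0556 to 0.102). *Dohh*, which completes hypusine, was at −0.01.

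In the steps after initiation, 4 of 10 genes of elongation and termination were higher and none lower, with a median of 0.13. The shares over all genes were 14.9% higher and 11.8% lower. *Eef1a1*, which brings tRNA to the ribosome (0.49, adjusted p = 0.00301), *Eef1b2*, its exchange factor (0.41, adjusted p = 0.00562), and the release factor *Etf1* (0.38, adjusted p = 0.0132) had the largest differences, and *Eef2* had −0.01. Of 7 factors of mitochondrial translation none was higher and 2 were lower, with a median of −0.16: *Mtrf1l*, a release factor (−0.55, adjusted p = 0.0102), and *Gfm1*, an elongation factor (−0.52, adjusted p = 0.0016). *Gfm2*, which acts in ribosome recycling, was at −0.02. With the analysis of variance the calls on *Etf1*, *Mtrf1l*, *Sat1*, *Srm*, *Gcn1*, *Mknk2* and *Rps6kb2* were lost. Among the elongation and termination genes named, the calls on *Eef1b2* (0.19, adjusted p = 0.0514) and *Etf1* (0.15, adjusted p = 0.125) were lost when the arrays were centred on ribosomal protein genes. The differences of genes named from the other lists are 0.22 lower on that scale too, and not all of their calls there are given.

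The probe sets behind a gene often differed. Of the 133 probe sets 32 were called higher (24.1%, against 11.4% of 45037 probe sets) and 11 lower (8.27%, against 9.58%). No gene had probe sets called in both directions, but 14 of the 19 called genes had at least 1 probe set that was not called, and 10 genes that were not called had at least 1 that was. *Eif4e3*, *Eif4a1*, *Eif1a*, *Eif3b* and *Eif3k* were the called genes for which every probe set was called.

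**Figure D4:**
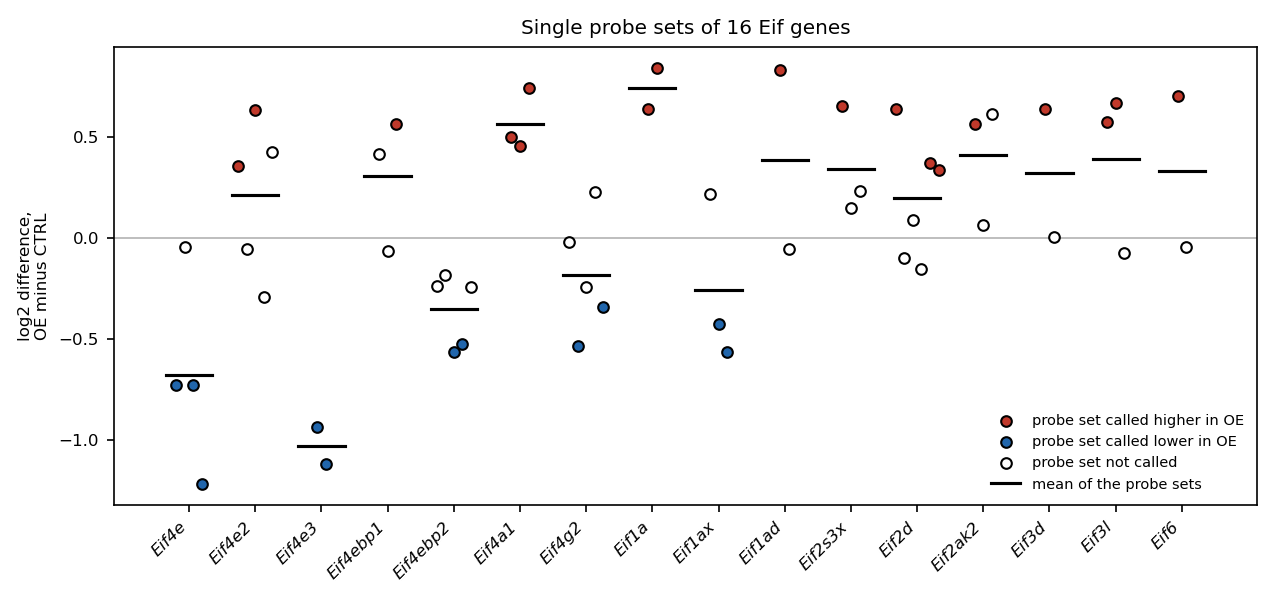
The log2 difference between OE and CTRL is plotted for each probe set of 16 genes, filled where limma over all probe sets called it, with a bar at the mean that stands for the gene. *Eif4e3*, *Eif4a1* and *Eif1a* had every probe set called, while *Eif1ad*, *Eif3d* and *Eif6* had 1 probe set called and 1 near 0, and centring on ribosomal protein genes shifts all points by −0.22.

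The promoters of 38 of the 47 genes were found in RefSeq (GRCm38.p6), 51 windows in all, each from 250 bases before to 50 after a start site. They were searched on both strands for the E-box CACGTG, the nuclear receptor motif AGGTCA and the ATF4 and C/EBP motif TGATGNAA, and on the gene's strand for a TOP-like start, a C at the start site followed by 4 pyrimidines. No motif is contained in another. The E-box was present in 11 of the 51 windows (9 genes) and in 7.15% of 32851 promoters of the same length. It was in 2 of 11 genes called higher, 1 of 4 called lower and 6 of 23 not called. AGGTCA was in 5 of the 51 windows (4 genes) and in 16.3% of all promoters. TGATGNAA was in 1 window (1 gene, 3.97% of all promoters) and the TOP-like start in 2 windows (2 genes, 2.51% of all promoters). A match states only that the letters are present. *Eif4e* and *Eif4a1*, which were called in opposite directions, both hold E-boxes, and *Eif2s3x* is the only 1 of the 38 genes with AGGTCA, TGATGNAA and a TOP-like start together, so these 3 promoters are given 5′ to 3′ on the strand of the gene, with the matches in capitals. For *Eif4e* 2 promoters were found, and the 1 shown was taken because it ranked first by its count of matches. In this promoter, at chr3:138527018-138527317 on the + strand, the E-boxes begin 228 and 64 bases before the start. In *Eif4a1*, at chr11:69672374-69672673 on the − strand, the E-box begins 189 bases before it. In *Eif2s3x*, at chrX:94212602-94212901 on the − strand, AGGTCA begins 121 bases before it, TGATGNAA on the opposite strand begins 96 bases before it, and the last capitals mark the TOP-like start.
Eif4e: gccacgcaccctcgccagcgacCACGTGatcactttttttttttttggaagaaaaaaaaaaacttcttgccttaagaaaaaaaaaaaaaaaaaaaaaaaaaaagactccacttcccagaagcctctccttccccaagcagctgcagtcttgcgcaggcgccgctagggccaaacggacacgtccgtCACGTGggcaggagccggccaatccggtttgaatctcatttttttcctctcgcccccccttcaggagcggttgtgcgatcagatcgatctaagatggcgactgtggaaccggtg
Eif4a1: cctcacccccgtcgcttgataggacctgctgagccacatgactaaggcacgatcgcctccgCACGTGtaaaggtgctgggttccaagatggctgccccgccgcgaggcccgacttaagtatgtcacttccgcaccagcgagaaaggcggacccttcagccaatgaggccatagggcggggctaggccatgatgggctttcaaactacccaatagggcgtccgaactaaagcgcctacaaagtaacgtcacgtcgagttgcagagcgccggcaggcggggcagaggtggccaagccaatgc
Eif2s3x: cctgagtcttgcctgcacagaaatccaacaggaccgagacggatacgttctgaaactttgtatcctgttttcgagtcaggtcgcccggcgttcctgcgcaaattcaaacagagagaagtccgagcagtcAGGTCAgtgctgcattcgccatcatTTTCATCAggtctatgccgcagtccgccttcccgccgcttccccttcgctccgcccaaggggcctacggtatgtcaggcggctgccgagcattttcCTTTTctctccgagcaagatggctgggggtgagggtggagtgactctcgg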

How the data were processed

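RNA of whole ventricles of 3 OE and 3 CTRL mice was hybridised to 1 array each. According to the methods, the authors summarized the arrays with RMA and normalized them by quantiles in GeneSpring GX, and then expressed each probe set relative to its median. The deposited values were taken as log2, which RMA gives, although no source used here states the base. They ran from −4.29 to 3.54, and no probe set had a median further than 5.0e-07 from 0. Filters on level were therefore not possible, and the number of arrays limits the precision.

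Of 45101 probe sets, 64 array controls, 932 with several symbols and 9160 with no gene in the annotation used were left out. The other 34945 were averaged into 18193 genes. Symbols were updated through the gene ID, which changed none. The comparison of OE with CTRL used limma 3.58.1 (R 4.3.3; lmFit, then eBayes), two-sided, without covariates, with Benjamini-Hochberg adjustment over all genes and, for single probe sets, over 45037 probe sets. SE is the moderated standard error. A one-way analysis of variance and a fold limit of 1.2, both named in the methods, were run as alternatives, beside array weights, other summaries of probe sets, other centrings, a replicate block and leaving out each array. The script was tested on simulated data. Promoters were RefSeq's (GRCm38.p6). Figures and tables were made with Python 3.11.15, pandas 2.3.3 and matplotlib 3.10.9.

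The members, factor groups, related lists, marker lists and tests were chosen with earlier results of these data known. The Eif genes comprise all that the array annotation names alone. Array values are given for each eIF2 kinase, each 4E binding protein and the 14 other called Eif genes of largest change. The other called genes are given by difference and adjusted p, and genes that were not called by difference or range. From each related list up to 3 called genes of largest change and the gene of smallest change are named, and *Ppp1r15a* is named besides. *Eif1*, *Eif2s1*, *Eif3g*, *Eif3j1*, *Eif3j2*, *Eif4e1b*, *Eif4g1* and *Eif4ebp3* had no probe set that named them alone and were not analysed here as genes. Promoters of *Eif1a*, *Eif2b3*, *Eif3e*, *Eif3h*, *Eif3i*, *Eif4e3*, *Eif4ebp1*, *Eif4g2* and *Eif6* were not analysed here.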

Additional observations from a re-analysis of the deposited data

Results flagged for a closer look

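A probe set that names *Eif3j2* together with *Eif3j1*, and so was left out of the gene values, gave a signal outside the main measurement. It was at 0.06, 0.35 and 0.23 in OE and at −0.24, −0.54 and −0.06 in CTRL (log2 difference 0.49, SE 0.135, limma adjusted p = 0.0356 over all probe sets), and the groups did not overlap. The 2 other probe sets of this pair of symbols had differences of 0.19 (adjusted p = 0.262) and −0.01 (adjusted p = 0.949), neither of them called.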

How the results depend on the processing

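Of the 19 Eif genes called, *Eif1a*, *Eif3b*, *Eif4a1*, *Eif4e*, *Eif4e3* and *Eif4ebp2* (6) were called under every alternative that was run, and *Eif2s3x*, *Eif3d*, *Eif3l* and *Eif6* lost their call only when the arrays were centred on ribosomal protein genes. Of 750 values of Eif genes under an alternative, 612 kept their direction and their side of the threshold, 74 lost the call and 26 gained one in the same direction. The other 38 had the opposite sign, in 18 genes, none of them called on the deposited scale, and 34 of these values were not called under the alternative either. The cause was not tested, except that leaving out an array leaves fewer samples. With one-way analysis of variance 1437 genes were higher and 1125 lower, with 8 Eif genes higher and 3 lower. Centred on ribosomal protein genes, 1278 genes were higher and 9305 lower, with 3 Eif genes higher and 15 lower, and the group medians were −0.0276 for eIF2, −0.0762 for eIF2B, −0.15 for the eIF2 kinases, 0.0800 for eIF3, −0.34 for eIF4 and −0.13 for the 4E binding proteins. On that scale 16 Eif genes turned below 0, of which *Eif2ak1* (−0.21), *Eif2b1* (−0.22) and *Eif4h* (−0.22) were then called lower, as was *Rheb* (−0.20), while the other 13 Eif genes (−0.18 to −0.00758) were not called. Centred on array medians, 18 Eif genes were higher and 3 lower. Read from the most variable probe set of each gene, 20 Eif genes were higher and 6 lower, the medians were 0.51 for eIF1 and eIF1A, 0.53 for eIF2A and eIF2D, 0.23 for the eIF2 kinases, 0.48 for eIF3 and −0.21 for eIF4, and *Eif5* turned to a called fall (−0.38). The median of eIF2 was 0.25 with the median of probe sets per gene, and those of eIF3 and of eIF5 and eIF6 were 0.25 and 0.15 when probe sets with the endings _x_at and _s_at were left out. Leaving out each array in turn, 1830 to 2371 genes were higher and 1243 to 1731 lower, 9 to 11 Eif genes were higher and 3 to 4 lower, 21 to 26 Eif probe sets were higher and 9 to 11 lower, and the medians were 0.16 to 0.24 for eIF2, 0.0637 to 0.21 for eIF2B, 0.00414 to 0.12 for the eIF2 kinases, 0.26 to 0.34 for eIF3, −0.16 to −0.0927 for eIF4, 0.06 to 0.11 for the 4E binding proteins and 0.0546 to 0.15 for eIF5 and eIF6. With the replicate number as a replicate block, 2369 genes were higher and 1679 lower, with 11 Eif genes higher and 3 lower. The deviations of samples with the same number correlated at 0.07, −0.12 and 0.03, and those with different numbers at −0.11 to 0.08. No pairing by number was seen, although with 3 arrays a group a weak pairing could be missed. Values centred on each probe set hold no level, so that dim probe sets could not be told from bright ones.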
